A study of Mus musculus with 2 samples.

Results

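The genes described here encode the molecules that show peptides to T cells, the major histocompatibility complex (MHC) class I and class II chains, with the proteins that load them. They were chosen by name, as the known genes H2-K1, H2-D1, H2-T23, B2m, Tap1, Tapbp, Cd74, H2-Aa, H2-Ab1 and H2-Eb1, which are 10 of the 16745 annotated genes with a read in either library. The tissue was adrenal gland of wild-type C57BL/6J mice without a stated treatment, and there was 1 group of 2 long-read RNA libraries, biological replicates 1 and 2. The mice came from The Jackson Laboratory, their age was given as unknown, and a free-text label calls them male although sex was entered as not collected. The libraries are separate biosamples with a shared donor entry, so the spread between them may be partly technical, and each test below compares these libraries and not conditions. Replicate 1 held 848782 reads and replicate 2 held 545229, so 1 read was worth 1.18 and 1.83 CPM (counts scaled to a library total of 1000000).

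Class I molecules sit on nearly all nucleated cells. A heavy chain such as the one from H2-K1 or H2-D1 pairs with beta-2 microglobulin, the product of B2m, and holds a peptide that the TAP transporter has carried from the cytosol into the endoplasmic reticulum. Class II molecules are built from an alpha and a beta chain and are found mainly on antigen-presenting cells such as dendritic cells, macrophages and B cells, where the invariant chain from Cd74 guards the peptide groove until it reaches the endosomes. In the adrenal gland, class II protein is known from resident macrophages.

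All 10 genes were read in both libraries, with 2538 reads in replicate 1 and 1209 in replicate 2. These were 0.299% (95% exact Clopper-Pearson interval 0.288 to 0.311) and 0.222% (0.209 to 0.235) of all reads. Intervals cover counting error only. Of the 10 genes, 7 were higher in replicate 1, where 27.9% of the 9879 genes tested were higher, and 3 were lower, where 36.6% of all genes were lower. The calls set the reads of each gene against the rest of the library in a two-sided Fisher's exact test. Its p-values were adjusted after Benjamini and Hochberg over the 9879 genes with at least 10 reads, at a threshold of 0.05. The median log2 ratio of replicate 1 over replicate 2, taken after adding 1 CPM, was 1.88 over the 10 genes and -0.38 over all genes tested. TMM scaling moved the median of all genes up by 0.43 and gave the same counts of 7 and 3, against 33.8% higher and 27.6% lower among all genes, and DESeq2 size factors also gave 7 and 3, against 33.8% and 27.5%.

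Transcript length moved with these ratios. Among all genes the libraries differed by length, and the running median of the ratio over 301 genes of similar length lay at 3.29 at the length of B2m and at -1.39 at that of Tap1. With that trend removed, in an exact binomial test, 2 genes were higher in replicate 1, against 21.4% of the genes with a length, and 5 were lower, against 20.0%. The other 3 did not pass. Both higher calls, those of H2-D1 and H2-Eb1, depend on the annotated ends of their transcripts, as given below. Each gene is therefore given below with its ratio before and after the trend was removed.

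**Figure D1:**
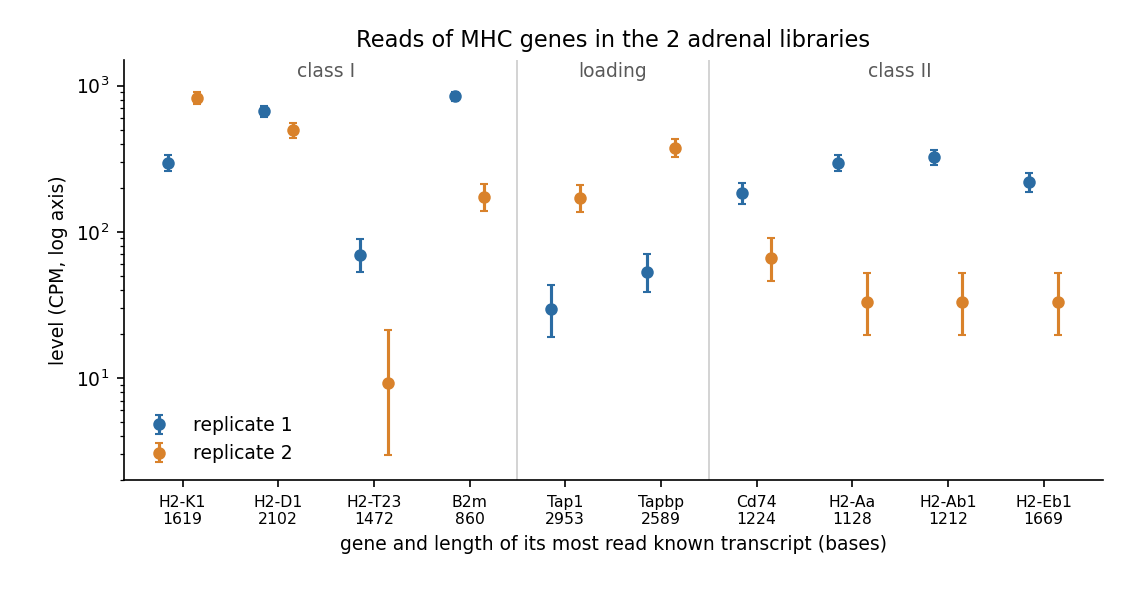
Level of each gene in CPM (log axis) in replicate 1 (blue) and replicate 2 (orange), with exact Poisson 95% intervals, in the order class I chains and B2m, peptide loading, class II chains and Cd74. The 4 class II genes and B2m lie higher in replicate 1, while Tap1, Tapbp and H2-K1 lie higher in replicate 2.

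The class I heavy chains H2-K1 and H2-D1 had the most reads of any heavy chain in both libraries. H2-K1, which encodes the K heavy chain and lies at chr17:33996017-34000347 on the minus strand (mm10), had 252 reads or 297 CPM in replicate 1 and 452 reads or 829 CPM in replicate 2. It averaged 563 ± 376 CPM (SD, n = 2). The gene was 2.79-fold higher in replicate 2 (log2 ratio -1.48, Fisher's exact test, adjusted p = 7.76e-40), and the ratio was -2.64 with the length trend removed. H2-D1, which encodes the D heavy chain at chr17:35262730-35267499 on the plus strand, had 568 reads or 669 CPM in replicate 1 and 270 reads or 495 CPM in replicate 2. It averaged 582 ± 123 CPM (SD, n = 2) and was 1.35-fold higher in replicate 1 (log2 ratio 0.43, adjusted p = 0.000102 by the same test), or 0.84 with the trend removed. The annotated length of 2102 bases used there includes a first exon of 457 bases, against 154 in H2-K1. At the 1619 bases of H2-K1 the trend was 1.16, above the ratio of 0.43. The sign of the corrected ratio of H2-D1 thus depends on its annotated start.

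The mean levels of these heavy chains were close, but their order differed between the libraries. H2-K1 made up 30.7% of the reads of both genes in replicate 1 (27.6 to 34.0) and 62.6% in replicate 2 (59.0 to 66.1), and these intervals do not overlap. Their leading transcripts are annotated as 1619 and 2102 bases long. The shares were not corrected for length, and the length trend stood at 1.16 for H2-K1 and at -0.41 for H2-D1. Per kilobase of leading transcript, H2-K1 reached 183 CPM in replicate 1, against 512 CPM in replicate 2, and H2-D1 reached 318 CPM, against 236 CPM. Counts here are of whole reads, which need not rise with length, so values per kilobase do not rank the genes by molecules. Those of H2-D1 also depend on its annotated start. The genes are near copies of each other, with 822 of 894 bases (91.9%) the same over the 5 coding exons of equal length, and how reads that match several copies were assigned is not given in the sources used here.

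H2-T23 encodes Qa-1, a nonclassical heavy chain that natural killer cells read through CD94/NKG2 receptors. It had 59 reads or 69.5 CPM in replicate 1 and 5 reads or 9.17 CPM in replicate 2, which was 7.58-fold higher in replicate 1 (log2 ratio 2.79, Fisher's exact test, adjusted p = 7.90e-08). With the length trend removed the ratio was 0.98 and did not pass (adjusted p = 0.211, exact binomial test). B2m, the shared light chain on chromosome 2, had 719 reads or 847 CPM in replicate 1 and 94 reads or 172 CPM in replicate 2. This was a log2 ratio of 2.29 (Fisher's exact test, adjusted p = 4.00e-67), but -1.003 with the trend removed, since genes of its length of 860 bases stood higher still in replicate 1. B2m therefore changed side with the length correction. The level of B2m over the sum of H2-K1 and H2-D1 cannot be read across the libraries, because these transcripts differ in length.

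The exons of H2-K1 and H2-D1 match closely where their alternative splicing takes place. Exon 6 encodes part of the cytoplasmic tail. The sequences below show it with the bases that an upstream acceptor adds in capitals, read 5′ to 3′ on the strand of the gene (GENCODE M21 transcripts, chr17:33996827-33996874 minus and chr17:35266467-35266514 plus), since both genes were read in both forms.
H2-K1 exon 6: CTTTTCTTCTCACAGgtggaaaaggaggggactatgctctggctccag
H2-D1 exon 6: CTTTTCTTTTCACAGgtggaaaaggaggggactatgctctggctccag
The stretches agree at 47 of 48 bases, and at 14 of the 15 in capitals. In H2-D1 the upstream acceptor was used by 14 of 554 reads spliced to this exon in replicate 1 (2.53%, 1.39 to 4.20) and by 7 of 264 in replicate 2 (2.65%, 1.07 to 5.39). In H2-K1 it was used by 3 of 231 reads in replicate 1 (1.30%, 0.269 to 3.75) and by 2 of 415 in replicate 2 (0.482%, 0.0584 to 1.73). The form was thus a minor one in each library, and its intervals overlap between replicates in each gene.

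At exon 8, the last exon, which ends the cytoplasmic tail and holds the stop codon, the genes used opposite acceptors. The bases between the acceptors are in capitals (chr17:33996474-33996503 minus and chr17:35266839-35266868 plus).
H2-K1 exon 8 start: TGATGGTTCATGACCCTCATTCTCTAGcgt
H2-D1 exon 8 start: TGATGGTTCATGACTCTCATTCTCTAGcgt
Of the 27 bases in capitals 26 were the same. H2-K1 mainly used the upstream acceptor, which keeps the capitals and places the stop codon 29 bases into the exon, while the downstream acceptor was used by 10 of 240 reads in replicate 1 (4.17%, 2.02 to 7.53) and 13 of 405 in replicate 2 (3.21%, 1.72 to 5.43). H2-D1 mainly used the downstream acceptor, with the stop codon 2 bases into the exon. Its upstream acceptor was used by 3 of 523 reads in replicate 1 (0.574%, 0.118 to 1.67) and by 0 of 235 in replicate 2, where the interval runs up to 1.56%. Which acceptor led was the same in both libraries for each gene.

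An intron of 339 bases that skips exon 6 from a donor within intron 5 was also found in both genes. H2-K1 had 4 such reads in replicate 1 and 8 in replicate 2, and H2-D1 had 2 and 3. H2-K1 also used an acceptor that lengthens exon 2 by 60 bases in 5 of 206 reads in replicate 1 and 8 of 411 in replicate 2. Another acceptor, which shortens exon 3 by 36 bases, was used by 6 of 213 reads in replicate 1 and 3 of 366 in replicate 2. H2-D1 used an acceptor that shortens exon 5 by 2 bases in 3 of 561 reads in replicate 1 and 0 of 270 in replicate 2.

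Intron retention in H2-K1 differed between the libraries. Retention was counted over reads that covered an intron of the leading transcript within a spliced model, and compared by Fisher's exact test (two-sided), adjusted over the 21252 introns of all genes that 20 or more such reads covered in both libraries. The test was added after the values were seen. Intron 2 of H2-K1, between the exons for the first and second extracellular domains, was retained in 2 of 209 reads in replicate 1 (0.957%, 0.116 to 3.41) and in 51 of 414 in replicate 2 (12.3%, 9.31 to 15.9; adjusted p = 1.62e-05). Of these, 1 read in replicate 1 and 33 in replicate 2 came from a model with all other introns removed.

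The sequence of intron 2 is shown because it holds the first stop codon in frame, in capitals, at its base 6 after 334 coding bases (H2-K1, chr17:33999547-33999733, minus).
H2-K1 intron 2: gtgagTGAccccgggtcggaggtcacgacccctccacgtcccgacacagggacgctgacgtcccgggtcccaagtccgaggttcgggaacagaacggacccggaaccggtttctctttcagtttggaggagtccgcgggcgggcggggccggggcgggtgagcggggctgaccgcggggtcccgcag
The intron is 187 bases long, so keeping it also shifts the reading frame. Whether such reads were translated was not measured.

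Introns 6 and 7 of H2-K1 were also retained more often in replicate 2. Intron 6 was retained in 4 of 235 reads in replicate 1 (1.70%) and 39 of 432 in replicate 2 (9.03%, adjusted p = 0.00926). Intron 7 was retained in 3 of 233 reads in replicate 1 (1.29%) and 34 of 426 in replicate 2 (7.98%, adjusted p = 0.0126). Some reads count for several introns, as 8 reads of replicate 2 kept introns 2, 6 and 7 together, and the annotated transcript H2-K1-209, which keeps the introns after intron 4, held 2 reads in replicate 1 and 17 in replicate 2. Without models of the ISM class, whose introns match part of those of an annotated transcript, introns 6 and 7 no longer passed (adjusted p = 0.937 and 1). Intron 2 did, with 0.990% in replicate 1 and 9.09% in replicate 2 (adjusted p = 0.00626). A model that keeps only the last introns falls in this class by definition, so this setting removes such reads and cannot tell whether they were incomplete. The other 4 introns of H2-K1 did not pass. Intron 1 was retained in 4.29% of reads in replicate 1 and 1.47% in replicate 2, and intron 5 in 3.80% and 4.84%.

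H2-D1 kept mainly intron 7, which was retained in 34 of 554 reads in replicate 1 (6.14%, 4.29 to 8.47) and 30 of 265 in replicate 2 (11.3%, 7.77 to 15.8). The difference did not pass (adjusted p = 0.461). Without ISM models, the class that holds models lacking only this last intron, 1 such read was left in each library. Intron 7 of H2-D1 is 139 bases long, and its first stop codon in frame lies at base 42 after 1084 coding bases, which is 2 bases short of the whole coding length of 1086 bases (chr17:35266727-35266865, plus, capitals for that codon).
H2-D1 intron 7: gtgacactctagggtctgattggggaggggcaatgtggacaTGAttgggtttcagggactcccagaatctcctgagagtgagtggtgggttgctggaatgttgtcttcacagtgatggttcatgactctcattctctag
Its last 27 bases are the counterpart of those that H2-K1 keeps in exon 8, with 26 the same. Intron 2 of H2-D1, the counterpart of the H2-K1 intron above, was retained in 5 of 552 reads in replicate 1 (0.906%) and 9 of 266 in replicate 2 (3.38%), which did not pass (adjusted p = 0.614). A model with all other introns removed held 1 of these reads in replicate 1 and 5 in replicate 2.

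In all, 3 of the 35 introns of these genes with enough reads were retained more in replicate 2, where 1.29% of all introns tested were, and 0 were retained more in replicate 1, as were 0.104% of all introns. Retention over all introns, pooled, was 0.356% in replicate 1 and 0.699% in replicate 2, so it was also higher in replicate 2 outside these genes. Its part in the H2-K1 difference was not tested. In Cd74 and B2m no spliced read retained an intron.

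**Figure D2:**
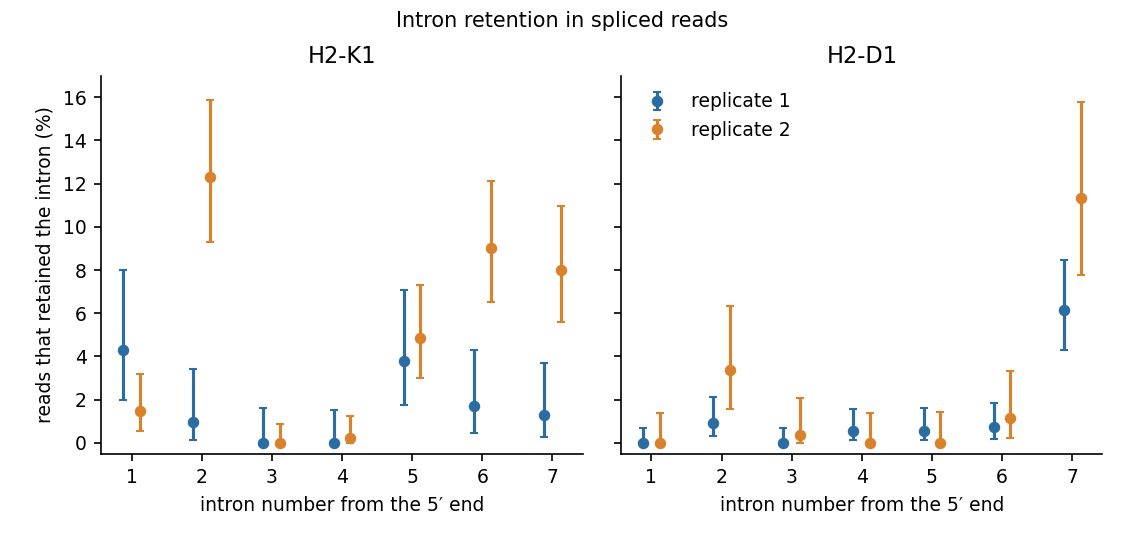
Share of reads that retained each intron of H2-K1 (left panel) and H2-D1 (right panel), in replicate 1 (blue) and replicate 2 (orange), with exact Clopper-Pearson 95% intervals; introns are numbered from the 5′ end of the leading transcript. Introns 2, 6 and 7 of H2-K1 stand higher in replicate 2, at 12.3%, 9.03% and 7.98%, and intron 7 of H2-D1 is the most retained of that gene in both libraries.

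The peptide loading genes were lower in replicate 1. Tap1, a subunit of the peptide transporter, had 25 reads or 29.5 CPM in replicate 1 and 93 reads or 171 CPM in replicate 2. The gene was 5.79-fold higher in replicate 2 (log2 ratio -2.49, Fisher's exact test, adjusted p = 1.78e-17) and the call held after the length correction (-1.10, adjusted p = 0.00104). Tapbp encodes tapasin, which bridges the transporter and the empty class I molecule, and had 45 reads or 53.0 CPM in replicate 1 and 205 reads or 376 CPM in replicate 2. It was 7.09-fold higher in replicate 2 (log2 ratio -2.80, adjusted p = 1.87e-42 by the same test), or -1.53 with the trend removed. Tap1 stood at 0.556 reads per Tapbp read in replicate 1 (0.326 to 0.926) and 0.454 in replicate 2 (0.351 to 0.582), and these intervals overlap. Their leading transcripts are 2953 and 2589 bases long, the longest of the 10 genes.

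Tapbp was split almost evenly between annotated transcripts that differ at a tandem acceptor at exon 7 and elsewhere. Tapbp-201 is 2898 bases long and Tapbp-206 is 2589, the length used in the correction above. The start of the exon is shown with the 3 bases that only the upstream acceptor keeps in capitals (chr17:33926627-33926656, plus).
Tapbp exon 7 start: TAGctgcctactggaccattcctgaagtct
The upstream acceptor was used by 20 of 40 reads in replicate 1 (50%, 33.8 to 66.2) and 95 of 201 in replicate 2 (47.3%, 40.2 to 54.4). The shares agree within counting error, although the level of the gene differed 7.09-fold. Among known reads, Tapbp-201 held 16 of 34 in replicate 1 and 80 of 173 in replicate 2, and Tapbp-206 held the rest.

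The class II genes were all higher in replicate 1. Together H2-Aa, H2-Ab1, H2-Eb1 and Cd74 had 870 reads in replicate 1 (1025 CPM) and 90 in replicate 2 (165 CPM), a 6.21-fold difference. H2-Aa, the A alpha chain, had 253 reads or 298 CPM in replicate 1 and 18 reads or 33.0 CPM in replicate 2 (9.03-fold, log2 ratio 3.14, Fisher's exact test, adjusted p = 2.00e-33). H2-Ab1, its A beta partner, had 276 reads or 325 CPM in replicate 1 and 18 reads or 33.0 CPM in replicate 2 (9.85-fold, log2 ratio 3.26, adjusted p = 9.51e-38 by the same test). With the length trend removed neither passed, at 0.33 (adjusted p = 0.527, exact binomial test) and 0.60 (adjusted p = 0.137).

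The paired chains were read in nearly equal numbers. H2-Aa stood at 0.917 reads per H2-Ab1 read in replicate 1 (0.770 to 1.09) and at 1 in replicate 2 (0.491 to 2.04). Per kilobase, with the limit given for H2-K1, H2-Aa reached 264 CPM in replicate 1, against 29.3 CPM in replicate 2, and H2-Ab1 reached 268 CPM, against 27.2 CPM. H2-Eb1, the E beta chain, had 185 reads or 218 CPM in replicate 1 and 18 reads or 33.0 CPM in replicate 2 (6.60-fold, log2 ratio 2.69, Fisher's exact test, adjusted p = 3.23e-21). It was higher in replicate 1 also with the trend removed (1.78, adjusted p = 1.96e-08, exact binomial test), the only class II gene for which this held. That correction used the annotated length of 1669 bases, where the trend was 0.90. Its most read unannotated structure was 1133 bases long and ended at base 34316199, short of the annotated gene end at 34316674. At the 1128 bases of H2-Aa the trend was 2.81, above the ratio of 2.69, so the corrected call depends on the annotated end. H2-Ea-ps, the partner of H2-Eb1 that mice of the C57BL/6 background are known not to express, had 0 reads in either library, where 3 counts would be 3.53 CPM in replicate 1 and 5.50 CPM in replicate 2, and the exact Poisson interval at 0 reaches 4.35 and 6.77 CPM. H2-Ea-ps was looked up after the other values were seen.

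Cd74, the invariant chain on chromosome 18, had 156 reads or 184 CPM in replicate 1 and 36 reads or 66.0 CPM in replicate 2 (2.78-fold, log2 ratio 1.46, Fisher's exact test, adjusted p = 7.51e-09). After the length correction it was lower in replicate 1 (-1.16, adjusted p = 0.000272), so its direction turned, as that of B2m did. Cd74 was below each class II chain in replicate 1 and above each of them in replicate 2, in reads and per kilobase with the exception of H2-Eb1 in replicate 1, where Cd74 was at 150 CPM per kilobase and H2-Eb1 at 131. That exception rests on dividing whole reads by annotated length, with the limit given for H2-K1.

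**Figure D3:**
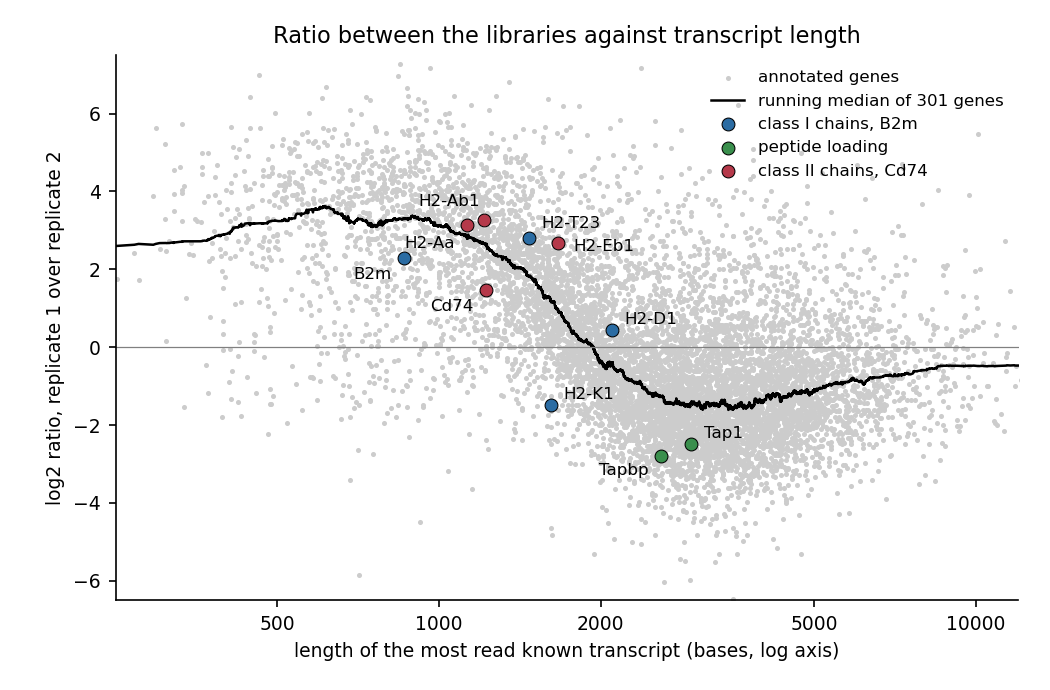
Log2 ratio of replicate 1 over replicate 2 against the length of the most read known transcript (log axis) for all annotated genes tested (grey), with their running median over 301 genes (line) and the MHC genes coloured by role. The class II chains, H2-T23 and B2m lie at lengths where most genes were higher in replicate 1, and of the MHC genes H2-K1 lies farthest below the line, at -2.64 from it.

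Cd74 is known to make a short and a long protein, and the long one, p41, carries an added domain from an alternative exon that inhibits cathepsins. That exon, of 192 bases, was included in 30 of 150 informative reads in replicate 1 (20.0%, 13.9 to 27.3) and 13 of 35 in replicate 2 (37.1%, 21.5 to 55.1), and the intervals overlap. All reads with it that matched an annotated transcript were Cd74-202, which is 1410 bases long against 1224 for the leading transcript Cd74-201, so transcript length and this exon go together.

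H2-Eb1 has an exon of 24 bases in its cytoplasmic part, shown because it was skipped in part of the reads (chr17:34315556-34315579, plus).
H2-Eb1 exon 5: gacagtctggacttcagccaacag
It was included in 163 of 182 reads in replicate 1 (89.6%, 84.2 to 93.6) and 16 of 17 in replicate 2 (94.1%, 71.3 to 99.9). An unannotated acceptor after this exon, joined to the donor of exon 4 by an intron of 698 bases, was used by 12 of 175 reads in replicate 1 (6.86%, 3.59 to 11.7) and 1 of 18 in replicate 2 (5.56%, 0.141 to 27.3). Another unannotated intron, of 708 bases, which also lacks the exon, had 3 reads in replicate 1 and 0 in replicate 2. The annotated transcripts H2-Eb1-202 and H2-Eb1-205 had 4 and 5 reads in replicate 1 and 0 in replicate 2.

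**Figure D4:**
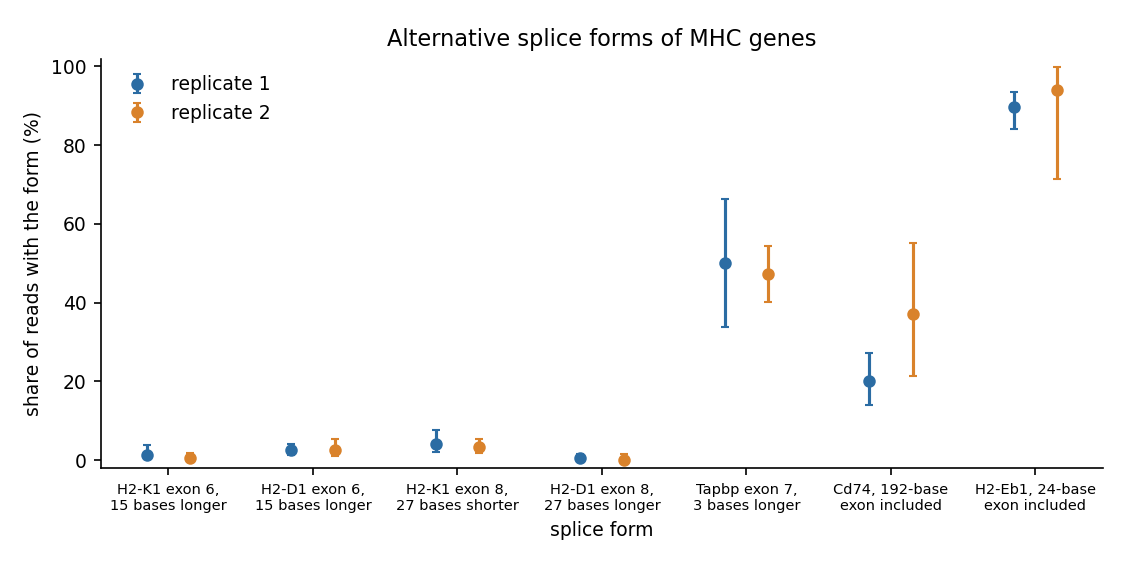
Share of reads with each alternative splice form in replicate 1 (blue) and replicate 2 (orange), with exact Clopper-Pearson 95% intervals. The tail forms of H2-K1 and H2-D1 lie at or below 4.17%, the Tapbp acceptor near an even split, the 192-base exon of Cd74 at 20.0% and 37.1%, and the 24-base exon of H2-Eb1 at 89.6% and 94.1%.

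Most reads of these genes matched an annotated transcript. The share was 90.1% in replicate 1 (2286 of 2538 reads) and 83.5% in replicate 2 (1010 of 1209), against 76.7% and 75.3% for all annotated genes. H2-Aa, H2-Ab1, H2-T23 and B2m had a single annotated structure among their known reads. The lowest share in replicate 1 was that of Tap1, at 13 of 25 reads (52.0%, 31.3 to 72.2), with 8 reads of the ISM class, against 83 of 93 in replicate 2 (89.2%, 81.1 to 94.7). In H2-D1 the ISM class, with 54 reads in replicate 1 and 31 in replicate 2, was led by a model that retained intron 7, with 26 and 25 reads. The model is listed with both annotated ends of the gene, and the ends of its reads were not examined. New combinations of known splice sites (NIC) held 19 reads of H2-K1 in replicate 1 and 43 in replicate 2. Models with a new splice site (NNC) held the largest share in H2-Eb1, at 21 of 185 reads in replicate 1 (11.4%), and 1 of 18 in replicate 2.

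The use of the leading model was compared for the 5 genes that had 20 or more known, NIC or NNC reads in both libraries, and 0 passed, where 9.84% of the 2186 genes tested did (two-sided Fisher's exact test, Benjamini-Hochberg). At an unadjusted p under 0.05 there were 2, B2m (99.7% in replicate 1 and 96.5% in replicate 2, adjusted p = 0.0849) and Cd74 (78.8% and 61.1%, adjusted p = 0.190). Of 49 internal exons with at least 10 informative reads in both libraries, 38 were included in every read. By the same measure the 48-base form of H2-K1 exon 6 was included in 3 of 10 reads in replicate 1 and 2 of 12 in replicate 2, counting reads that skip the whole exon as the others.

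**Figure D5:**
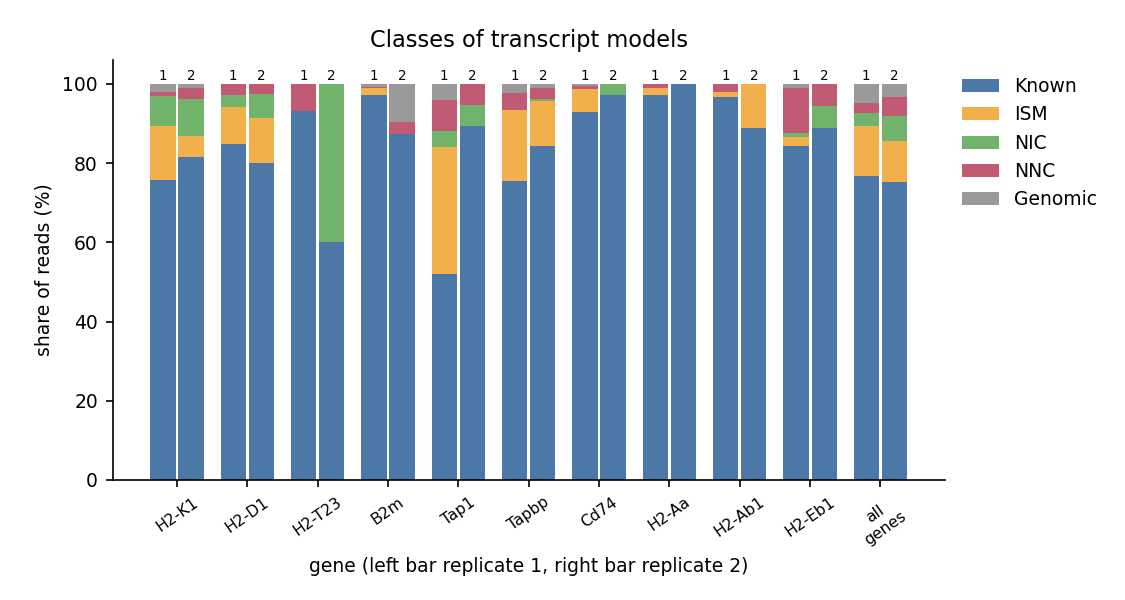
Share of reads in each class of transcript model for the MHC genes and all annotated genes, left bar replicate 1 and right bar replicate 2: Known (annotated structure), ISM (part of one), NIC (new combination of known splice sites), NNC (a new splice site) and Genomic (no matching splice structure). Known reads lead in every bar, from 52.0% for Tap1 in replicate 1 to 100% for H2-Aa in replicate 2, while H2-T23 in replicate 2 rests on 5 reads.

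A short promoter motif, the Y box bound by the factor NF-Y, is known from the regulation of both class I and class II genes. The table of RefSeq promoters (GRCm38.p6, 250 bases before to 50 after each start) held 8 of the 10 genes, all except H2-Ab1 and Cd74. The sequence CTGATTGG, a form of the Y box, was searched on both strands without regard to position. It was found in 6 of these 8, in H2-K1, H2-D1, H2-T23, Tap1, H2-Aa and H2-Eb1, and in 4.70% of the 27025 genes in the table. A match may thus be another CCAAT element of a promoter and not its Y box, and the matches were not sorted by element. The motif was chosen after the earlier results were known, and a match is no evidence of binding. The stretches below show the match in capitals in a class I and a class II pair of genes (chr17:34000322-34000369 minus for H2-K1, chr17:35263011-35263078 plus for H2-D1, chr17:34287837-34287904 minus for H2-Aa and chr17:34305775-34305842 plus for H2-Eb1). That of H2-K1 runs just past the RefSeq start and overlaps the gene bounds given above. RefSeq and GENCODE starts differ for H2-D1, whose stretch lies inside the first exon of the leading transcript used above.
H2-K1 promoter: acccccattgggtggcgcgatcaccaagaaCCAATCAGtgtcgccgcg
H2-D1 promoter: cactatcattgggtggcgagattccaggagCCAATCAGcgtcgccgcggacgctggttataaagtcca
H2-Aa promoter: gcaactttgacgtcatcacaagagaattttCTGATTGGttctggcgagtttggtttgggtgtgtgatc
H2-Eb1 promoter: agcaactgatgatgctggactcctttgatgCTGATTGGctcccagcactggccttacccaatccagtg
H2-K1 and H2-D1 carry the match on the opposite strand from H2-Aa and H2-Eb1, as CCAATCAG. Ahead of it both also hold ATTGGG, which the search did not count. H2-K1 was lower in replicate 1, while H2-D1, H2-Aa and H2-Eb1 were higher. A link between the strand of the match and the level was not tested.

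Genes around the pathway were counted in lists that were chosen with earlier results of these data known. Their counts stand beside 27.9% higher and 36.6% lower in replicate 1 among all genes tested, and 21.4% and 20.0% after the length correction. Of 11 genes of class I peptide supply and loading beyond the 10, 4 were higher in replicate 1, 5 lower and 2 did not pass, and after the length correction 2 were higher and 3 lower. Pdia3, a chaperone of the loading complex, had 366 CPM in replicate 1 and 1018 CPM in replicate 2. Canx and Calr, the lectin chaperones calnexin and calreticulin, had 99.0 and 87.2 CPM in replicate 1 and 578 CPM each in replicate 2. All 3, the most read of this list, were lower in replicate 1 by the test, Pdia3 no longer with the length trend removed. Tap2 and Erap1 were also lower. The 4 higher in replicate 1 were Psme2, Psme1, Psmb8 and Psmb10. Of these Psme2, with 269 CPM in replicate 1 and 7.34 CPM in replicate 2, and Psmb8, with 133 and 9.17 CPM, stayed higher with the trend removed. Of 17 other class I chain genes, 12 had a read, and of the 7 tested 3 were lower in replicate 1, 0 were higher and 4 did not pass. With the trend removed 5 of the 7 were lower in replicate 1. The most read were Fcgrt, the neonatal Fc receptor, with 140 CPM in replicate 1 and 99.0 CPM in replicate 2, Mr1, which presents vitamin B metabolites, with 10.6 and 108 CPM, and H2-Q6, with 10.6 and 103 CPM, whose reads may be split with its near copies. Fcgrt passed in neither direction, before or after that correction, while Mr1 and H2-Q6 were lower in replicate 1 both times.

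Beyond the 4 class II genes, 10 genes of class II chains and loading were annotated, of which 9 had a read and 4 were tested. Of these, 3 were higher in replicate 1 and 1 lower, and 0 passed in either direction with the trend removed. Lgmn, an endosomal protease, had 194 CPM in replicate 1 and 266 CPM in replicate 2. Ctss, the protease cathepsin S that degrades the invariant chain, had 179 and 34.8 CPM, and H2-DMb1, the beta chain of the peptide editor DM, had 40.1 and 7.34 CPM.

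Among 13 transcription factor genes of the MHC, all had a read, and of 10 tested 2 were higher in replicate 1, 4 lower and 4 did not pass, near the shares of all genes. After the length correction 3 were higher and 3 lower. Irf1, a factor induced by interferon, had 16.5 CPM in replicate 1 and 123 CPM in replicate 2, and Nfyb, a subunit of the factor that binds the Y box, had 35.3 and 58.7 CPM. Ciita, the master regulator of class II genes, had 1 read in replicate 1 and 3 in replicate 2, and Nlrc5, its class I counterpart, had 2 and 4, too few to compare. Of 13 tested interferon response genes 7 were higher in replicate 1, 3 lower and 3 did not pass, and with the trend removed 4 were higher and 2 lower. The most read were Ifi27 with 922 CPM in replicate 1 and 114 CPM in replicate 2, Ly6e with 497 and 34.8 CPM, and Ifitm3 with 246 and 5.50 CPM.

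Markers of cells that carry class II were called in both directions. Of 20 macrophage and dendritic cell markers 17 had a read and 13 were tested, of which 7 were higher in replicate 1, against 27.9% of all genes, 5 were lower, against 36.6%, and 1 did not pass. Their summed level was 1274 CPM in replicate 1 and 422 CPM in replicate 2. Lyz2 had 648 CPM in replicate 1 and 141 CPM in replicate 2, C1qa had 179 and 9.17 CPM, and C1qc had 141 and 12.8 CPM. After the length correction 0 were higher and 1 was lower, and Csf1r, Adgre1, Mrc1, Ptprc and Itgax were the 5 lower in replicate 1 before that. Clec9a, Itgam and Xcr1 had no read. In bulk tissue, fewer cells of a type and less RNA per cell cannot be told apart, and the part of these cells in the class II difference was not tested. Of 10 lymphocyte markers 9 had no read and Nkg7 had 1, in replicate 1, so T cell and B cell genes were at or near 0. Of 9 tested endothelial markers, from cells that also carry class I, 7 were lower in replicate 1, against 36.6% of all genes, 1 was higher and 1 missed the threshold. Under TMM scaling 5 were lower and 1 higher, and after the length correction 3 were lower and 1 higher. Their summed level was 483 CPM in replicate 1 and 1497 CPM in replicate 2, led by Plvap, Eng and Tie1 with 96.6, 63.6 and 14.1 CPM in replicate 1 and 389, 255 and 270 CPM in replicate 2.

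The libraries matched their tissue label. The 8 markers of steroid-making cortex summed to 59949 CPM in replicate 1 and 92816 CPM in replicate 2, and the 6 chromaffin markers to 10147 and 23212 CPM, led by Star, Cyp21a1 and Cyp11b1 and by Chgb, Chga and Th. Of 7 kidney and liver markers 6 had no read and Lrp2 had 1.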

How the data were processed

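For each of the 2 libraries the authors deposited a count of whole reads for every transcript model, with the models' exons, on mm10 with GENCODE M21 per the text deposited with them. New models are credited to TALON, per the file headers and source column. Not given in the sources used here are platform, aligner and any correction of reads. The counts were not normalized, and models with at least 1 read are listed.

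Reads of known genes were summed per gene and scaled to CPM over all reads. Ratios are replicate 1 over replicate 2 after adding 1 CPM. Shares carry Clopper-Pearson and levels Poisson 95% intervals. TMM factors came from edgeR 4.0.16 and size factors from DESeq2 1.42.0 (R 4.3.3), each used in an exact binomial test, since 1 group of 2 libraries gives no contrast for a count model. The rest used Python 3.11.15, pandas 2.3.3, numpy 2.4.6, scipy 1.17.1 and matplotlib 3.10.9. All tests take reads as independent. The Fisher's exact tests and the running median were tested on simulated data. The leading transcript is the most read known one.

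Members and lists were chosen with earlier results of these data known. Named were all 10 genes, the 3 most read genes of each list (1 of them is not reported here), known transcripts with at least 5% of known reads, NIC and NNC structures with at least 3 reads summed and internal exons included below 95% over at least 10 reads. Sequences came from GENCODE M21 transcripts and RefSeq promoters. Some further list genes were named for their direction or role. Marchf1 was listed under a symbol absent from the annotation.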

Additional observations from a re-analysis of the deposited data

Results flagged for a closer look

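Reads on the strand opposite to H2-K1 appeared in data outside the gene counts, above the limit that a count of 0 allows. There were 26 in replicate 1 and 25 in replicate 2, each in 3 antisense models. Of these, 8 in replicate 1 and 18 in replicate 2 were spliced, and each spliced model used the position of intron 4 of H2-K1, read on the other strand. The remaining 18 and 7 reads were unspliced. Whether the strand of these reads was assigned correctly was not tested. The other genes had at most 8 such reads in a library, which Tapbp had in replicate 1 against 1 in replicate 2.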

How the results depend on the processing

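No paired analysis was possible because the series has 1 group. Of the counts above, 2 depended on the length correction, for which 2 genes instead of 7 were higher in replicate 1 and 5 instead of 3 lower. The 2 higher calls after correction depend in turn on annotated ends, that of H2-D1 on its start and that of H2-Eb1 on its last base. The counts of 7 and 3 held under TMM, DESeq2 size factors, no minimum of reads, a minimum of 50 reads, known, NIC and NNC models only, and without models of a single read. B2m and Cd74 reversed with the length trend removed, to -1.003 and -1.16, and H2-T23, H2-Aa and H2-Ab1 no longer passed. The count of 3 introns of H2-K1 fell to 1 without ISM models and held with unspliced models counted and without NIC and NNC models of a single read, which are alternatives chosen after seeing the data. Leaving out ISM models removes by definition reads that keep only the last introns. The count of 0 genes with different use of the leading model held under all 4 alternatives, at smallest adjusted p of 0.0687 to 0.241 (Fisher's exact test). Without models of a single read, 7 of the known shares of single genes moved beyond their interval and 13 did not. Leaving out a library leaves the level in the other. At 18 reads for each class II chain in replicate 2, shares there have wide intervals, such as 71.3 to 99.9% for the 24-base exon of H2-Eb1.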

Other observations

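The genes whose ratio lay nearest the class II median of 2.91, among genes with at least 100 reads, were Uqcc2, Cmbl, Mrps23, Pdcd6 and Gpx1, at log2 ratios of 2.90 to 2.91 over the 2 libraries. Their leading transcripts are 500 to 1332 bases long. Those nearest the class I median of 1.36 were Fh1, Pnrc1, Hsd3b1, Sri and Map1lc3b, at 1.36 to 1.37, with leading transcripts of 1648 to 2636 bases.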
